A study of Arabidopsis thaliana with 33 samples.

Results

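The 8 genes described here encode small heat shock proteins (small HSPs) of the cytosol, with 1 peroxisomal relative, in Arabidopsis rosettes exposed to an increase in irradiance. They were taken by locus from the 27826 loci of the array table, and all 8 were found there. HSP17.6A (AT5G12030) and HSP17.6II (AT5G12020) are the 2 class II genes and lie next to each other on chromosome 5. The 5 class I genes are HSP17.6B (AT2G29500) on chromosome 2, HSP17.8 (AT1G07400), HSP17.6C (AT1G53540) and AT1G59860 (written At1g59860 here) on chromosome 1, and HSP17.4 (AT3G46230) on chromosome 3. HSP15.7 (AT5G37670), on chromosome 5, encodes the peroxisomal member. Chromosomes are those of the TAIR10.1 annotation, and no coordinates are given because the array table holds none. The 11 groups had 3 Affymetrix AraGene arrays each, 33 in all. Plants of 3 natural accessions (Col-0, Ga-0, Ts-1), with no transgene or mutation stated, were given 550 μmol m-2 s-1 from the start of day 25 after sowing (high light, HL) or grown on at 100 μmol m-2 s-1 (low light, LL). The study reports that the increase in irradiance also raised the temperature, so effects of light and of warming cannot be told apart in these arrays. All 3 accessions were sampled in HL and in LL at 1 hr, on day 25. Col-0 was also sampled in HL and LL at 3.5 hr on day 25 and at 25 hr on day 26, and in LL at -23 hr on day 24, and each array held the pooled RNA of 3 rosettes.

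Small HSPs are chaperones that work without ATP. They form large oligomers, bind proteins that begin to unfold and keep them from aggregating until HSP70 and the disaggregase HSP101 refold them. The class I and class II proteins act in the cytosol and nucleus, and HSP15.7 carries a peroxisomal targeting signal. In plants the genes are transcribed under heat stress factors, which bind heat shock elements in their promoters, and leaves that are not stressed hold little of these transcripts.

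The table holds the digits of linear values normalized by the Robust Multi-array Average (RMA) algorithm, without their decimal separator, so the power of 10 of each value is not known. Within a group, the power of 10 of each array was taken so that the arrays lay nearest to each other, and LL groups were placed nearest to Col-0 LL at 1 hr. For HL against LL, the power of 10 came from the fold changes in the study's supplementary tables, where all 40 changes of the 8 genes are found. In 36 of these 40 the digits alone would place the change elsewhere, so its direction and its power of 10 come from those tables and only its digits from the arrays. Differences between LL groups rest on the digits alone. One beyond 3.16-fold (1.66 on the log2 scale) would be placed at a wrong size and could take the opposite direction. Differences between HL groups rest on this placing of the LL groups as well as on the supplementary tables. Levels are given for each gene relative to the geometric mean of the Col-0 LL 1 hr arrays, which is set at 1. They cannot be compared between genes, and for the same reason the tissue could not be checked against its marker genes. In whole rosettes, a change in RNA per cell and a change in the share of cells that express a gene cannot be told apart. Whether the probes match all 3 accessions equally, and whether similar class I transcripts cross-hybridize, was not tested.

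A gene was called up- or down-regulated at a limma adjusted p (Benjamini-Hochberg over all 27826 loci) below 0.05 when its fold change also exceeded 1.4 or was under 0.714. Array medians differed by -0.044 to 0.036 on the log2 scale, and the median residual SD of all loci was 0.11 on that scale. It was between 0.13 and 0.29 for the 8 genes, with HSP17.6A the most variable and At1g59860 the least.

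All 8 genes had higher levels in HL than in LL in each of the 5 comparisons, and the 3 HL arrays lay above the 3 LL arrays every time. In Col-0 at 1 hr, 8 of 8 genes were called up-regulated, against 1.94% of all loci, and their median log2 fold change was 3.18, against -0.019 for all loci. In Ga-0 at 1 hr, 8 of 8 were called up-regulated (1.37% of all loci), with a median of 2.90, and in Ts-1 at 1 hr 8 of 8 (1.56% of all loci), with a median of 2.42. In Col-0 at 3.5 hr, 7 of 8 were called up-regulated (3.94% of all loci), with a median of 1.98, and at 25 hr 8 of 8 (2.67% of all loci), with a median of 2.17. The 7 genes other than HSP15.7 were called up-regulated in all 5 comparisons, as were 57 of the 27826 loci (0.205%). Because the supplementary tables that set the powers of 10 list responsive genes, these counts are not independent of them. The 8 genes were also chosen with earlier results of these data known, so the counts are a description and not a test. The tables list 518 genes, and all other loci were placed at the smallest change, which limits the shares of all loci. The share of all loci whose HL arrays lay above the LL arrays was 9.81% in Col-0 at 1 hr, 17.5% at 3.5 hr, 15.7% at 25 hr, 7.87% for Ga-0 and 9.36% for Ts-1.

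**Figure D1:**
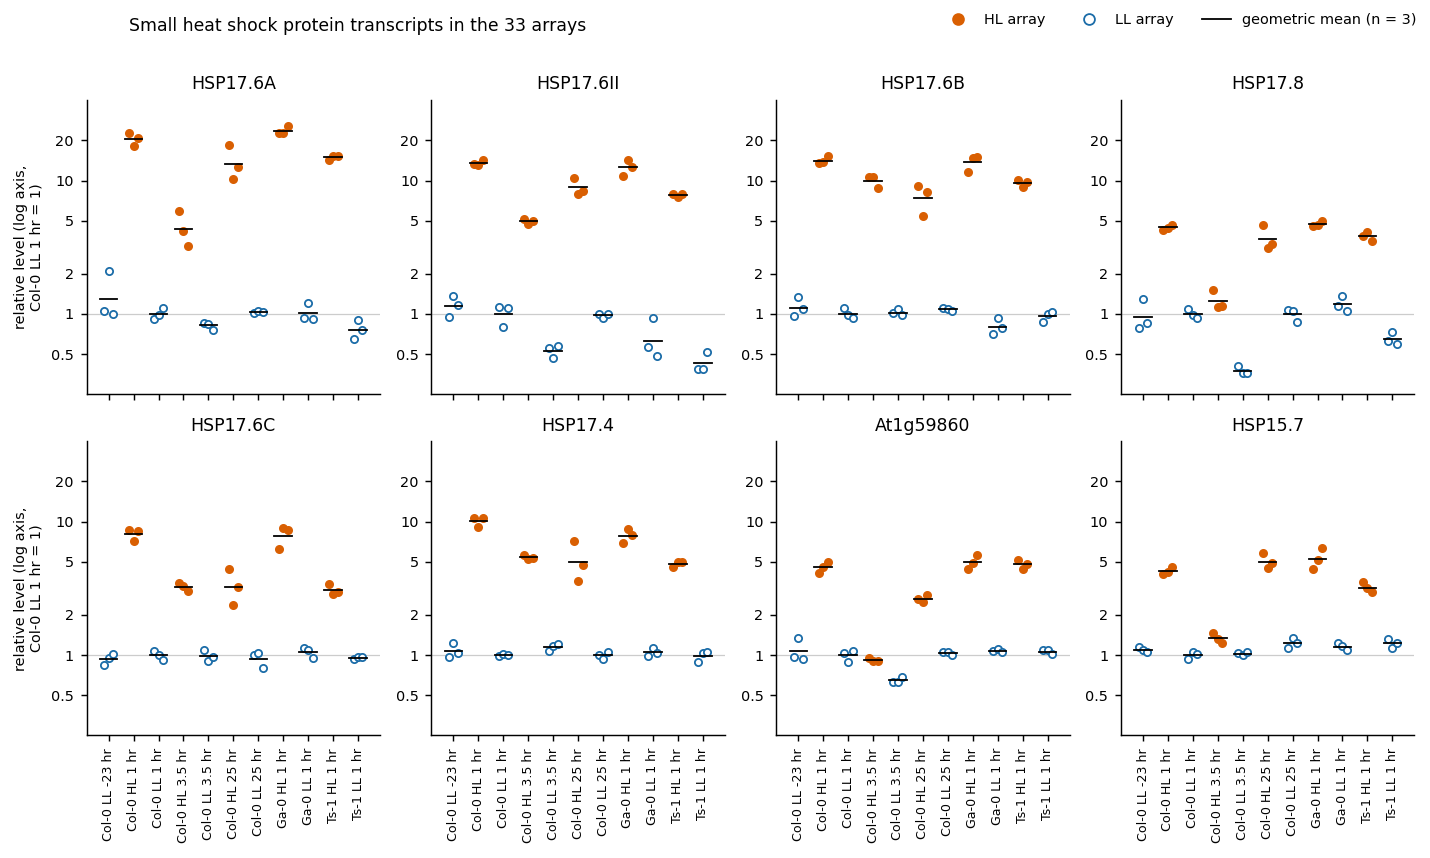
Relative level (log axis, Col-0 LL 1 hr set at 1) of the 8 small HSP genes in each of 33 arrays, with HL arrays as filled points, LL arrays as open points and the geometric mean of 3 arrays as a line. HL arrays lie above LL arrays of the same accession and time in every panel, and the gap is narrowest at 3.5 hr for At1g59860 and HSP15.7.

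The class II genes were among the most responsive of the set. The relative level of HSP17.6A was 22.8, 18.2 and 20.7 in Col-0 HL at 1 hr, against 0.918, 0.986 and 1.1 in Col-0 LL. It was 22.8, 22.9 and 25.6 in Ga-0 HL, against 0.935, 1.2 and 0.922 in Ga-0 LL. In Ts-1 HL it was 14.2, 15.2 and 15.4, against 0.648, 0.903 and 0.759 in Ts-1 LL. The log2 fold changes of 4.36 ± 0.20 for Col-0, 4.55 ± 0.20 for Ga-0 and 4.29 ± 0.20 for Ts-1 (SE, n = 3 against 3) were the largest among the 8 genes in each accession, and the highest limma adjusted p of the 3 was 6.9e-16. Later in Col-0, HSP17.6A had 5.89, 4.20 and 3.25 in HL at 3.5 hr, against 0.857, 0.845 and 0.764 in LL. At 25 hr it had 18.4, 10.2 and 12.6 in HL, against 1.02, 1.06 and 1.04 in LL. The log2 fold changes were 2.39 ± 0.20 and 3.68 ± 0.20, so the middle time-point was the low one.

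HSP17.6II, its neighbor, was nearly as responsive. Its relative level was 13.4, 13.0 and 14.3 in Col-0 HL at 1 hr, against 1.14, 0.797 and 1.11 in Col-0 LL. Ga-0 had 10.9, 14.3 and 12.7 in HL, against 0.561, 0.929 and 0.483 in LL. Ts-1 had 7.98, 7.54 and 7.99 in HL, against 0.390, 0.384 and 0.516 in LL. Ts-1 was thus the lowest of the accessions in both lights, and the log2 fold changes were 3.76 ± 0.17 for Col-0, 4.31 ± 0.17 for Ga-0 and 4.20 ± 0.17 for Ts-1. At 3.5 hr, Col-0 had 5.18, 4.74 and 4.95 in HL, against 0.559, 0.469 and 0.575 in LL. At 25 hr it had 10.5, 7.93 and 8.38 in HL, against 0.995, 0.941 and 0.996 in LL. The level in both lights was lowest at 3.5 hr, and the fold change there (3.22 ± 0.17) was close to that at 25 hr (3.18 ± 0.17).

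Among the class I genes, HSP17.6B had the largest response in all 5 comparisons. Its relative level was 13.6, 13.7 and 15.2 in Col-0 HL at 1 hr, against 1.1, 0.977 and 0.929 in Col-0 LL. In Ga-0 it was 11.7, 14.8 and 15.1 in HL, against 0.707, 0.934 and 0.782 in LL. In Ts-1 it was 10.0, 8.92 and 9.68 in HL, against 0.876, 1.01 and 1.03 in LL. The log2 fold changes were 3.82 ± 0.14 for Col-0, 4.10 ± 0.14 for Ga-0 and 3.30 ± 0.14 for Ts-1. Col-0 HL rosettes held 10.6, 10.6 and 8.85 at 3.5 hr, against 1.02, 1.08 and 0.976 in LL. They held 9.14, 5.44 and 8.14 at 25 hr, against 1.11, 1.09 and 1.05 in LL. This was the gene that kept most of its 1 hr level at 3.5 hr, with log2 fold changes of 3.29 ± 0.14 at 3.5 hr and 2.77 ± 0.14 at 25 hr.

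HSP17.4 and HSP17.6C, also class I genes, had the largest differences in response between Col-0 and Ts-1. HSP17.4 was at 10.7, 9.08 and 10.7 in Col-0 HL at 1 hr, against 0.981, 1.02 and 1.00 in Col-0 LL. It was at 6.89, 8.75 and 7.97 in Ga-0 HL, against 0.982, 1.13 and 1.03 in Ga-0 LL. In Ts-1 it was at 4.55, 5.01 and 4.96 in HL, against 0.886, 1.04 and 1.05 in LL. The HL arrays of the 3 accessions did not overlap, while their LL arrays did, and the log2 fold changes were 3.34 ± 0.14 for Col-0, 2.90 ± 0.14 for Ga-0 and 2.29 ± 0.14 for Ts-1. Col-0 had 5.63, 5.25 and 5.37 in HL at 3.5 hr, against 1.08, 1.18 and 1.22 in LL (log2 fold change 2.23 ± 0.14). It had 7.17, 3.60 and 4.75 in HL at 25 hr, against 1.00, 0.938 and 1.06 in LL (2.32 ± 0.14).

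The relative level of HSP17.6C was 8.73, 7.22 and 8.51 in Col-0 HL at 1 hr, against 1.08, 1.00 and 0.922 in Col-0 LL. Ga-0 had 6.20, 8.90 and 8.64 in HL, against 1.14, 1.08 and 0.947 in LL. Ts-1 had 3.42, 2.87 and 2.98 in HL, against 0.941, 0.963 and 0.964 in LL. All Ts-1 HL arrays lay below all HL arrays of Col-0 and Ga-0, and the log2 fold changes were 3.02 ± 0.15 for Col-0, 2.89 ± 0.15 for Ga-0 and 1.69 ± 0.15 for Ts-1. In Col-0 it was at 3.45, 3.30 and 3.05 in HL at 3.5 hr, against 1.08, 0.904 and 0.966 in LL. The level was 4.41, 2.36 and 3.25 in HL at 25 hr, against 0.997, 1.03 and 0.794 in LL. Both later responses (1.73 ± 0.15 and 1.79 ± 0.15) were of about the size seen in Ts-1 at 1 hr.

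HSP17.8, the next class I gene, was at 4.25, 4.44 and 4.68 in Col-0 HL at 1 hr, against 1.09, 0.986 and 0.930 in Col-0 LL. It was at 4.59, 4.63 and 5.01 in Ga-0 HL, against 1.15, 1.36 and 1.06 in Ga-0 LL. Ts-1 had 3.83, 4.14 and 3.54 in HL, against 0.623, 0.733 and 0.600 in LL, so its LL arrays were the low ones. The log2 fold changes were 2.16 ± 0.14 for Col-0, 2.0 ± 0.14 for Ga-0 and 2.56 ± 0.14 for Ts-1. At 3.5 hr, Col-0 had 1.51, 1.13 and 1.14 in HL, against 0.408, 0.363 and 0.359 in LL. At 25 hr it had 4.63, 3.13 and 3.34 in HL, against 1.07, 1.04 and 0.875 in LL. The HL level at 3.5 hr overlapped with the Ga-0 LL level at 1 hr, yet the fold change against LL of the same time was 1.73 ± 0.14, near that at 25 hr (1.88 ± 0.14).

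At1g59860, a class I gene, had nearly the same fold change in the 3 accessions. Its relative level was 4.14, 4.60 and 4.94 in Col-0 HL at 1 hr, against 1.04, 0.893 and 1.07 in Col-0 LL. It was 4.44, 4.89 and 5.66 in Ga-0 HL, against 1.07, 1.11 and 1.06 in Ga-0 LL. In Ts-1 it was 5.14, 4.43 and 4.84 in HL, against 1.09, 1.09 and 1.01 in LL. The HL arrays of the accessions overlapped, and the log2 fold changes were 2.19 ± 0.10 for Col-0, 2.2 ± 0.10 for Ga-0 and 2.18 ± 0.10 for Ts-1. In Col-0 at 3.5 hr it had 0.954, 0.899 and 0.895 in HL, against 0.629, 0.628 and 0.679 in LL. At 25 hr it had 2.61, 2.49 and 2.82 in HL, against 1.06, 1.06 and 0.995 in LL. The response at 3.5 hr (0.51 ± 0.10, limma adjusted p = 3.3e-04) was just past the fold limit, with HL levels that overlapped with the LL levels at 1 hr, and without Col-0 HL 3.5 hr replicate 1 it was 0.48 and no longer past that limit. At 25 hr the response was 1.35 ± 0.10.

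The peroxisomal HSP15.7 was at 4.02, 4.16 and 4.58 in Col-0 HL at 1 hr, against 0.939, 1.05 and 1.02 in Col-0 LL. Ga-0 had 4.45, 5.14 and 6.36 in HL, against 1.22, 1.17 and 1.08 in LL. Ts-1 had 3.50, 3.16 and 2.96 in HL, against 1.33, 1.13 and 1.23 in LL. Ts-1 had the lowest mean HL level and the highest mean LL level of the 3 accessions, and the log2 fold changes were 2.09 ± 0.10 for Col-0, 2.18 ± 0.10 for Ga-0 and 1.38 ± 0.10 for Ts-1. In Col-0 at 3.5 hr it had 1.47, 1.33 and 1.24 in HL, against 1.03, 0.994 and 1.05 in LL. At 25 hr it had 5.79, 4.45 and 4.92 in HL, against 1.12, 1.35 and 1.23 in LL. The response at 3.5 hr was 0.39 ± 0.10 (limma adjusted p = 0.0052), which lies within the fold limit, so HSP15.7 was the gene not called there. At 25 hr it was 2.03 ± 0.10, close to the response at 1 hr.

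**Figure D2:**
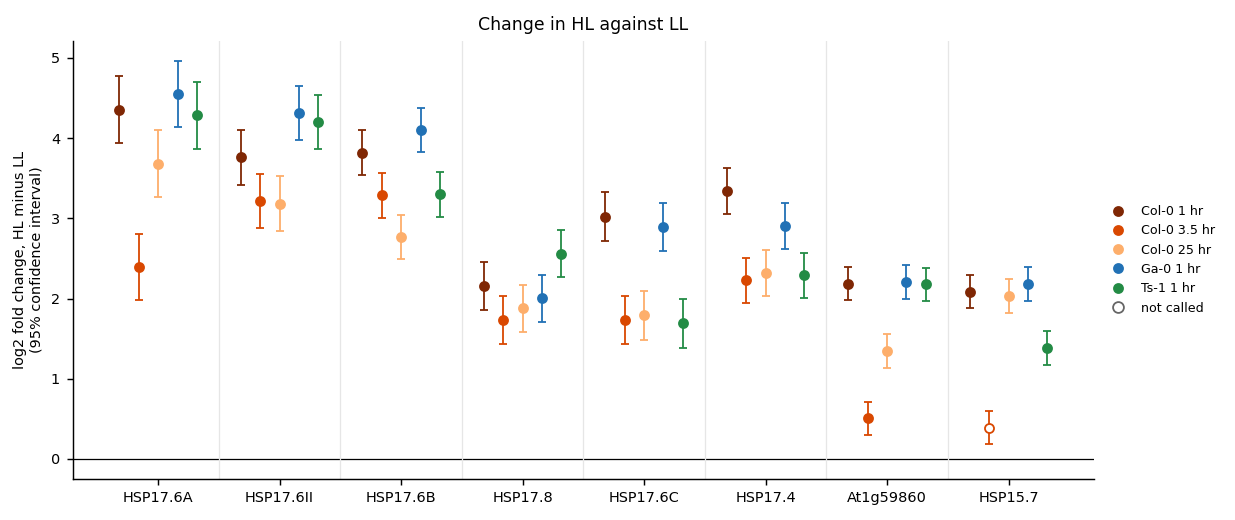
Log2 fold change (HL minus LL, limma, 95% confidence interval) of the 8 small HSP genes in Col-0 at 1, 3.5 and 25 hr and in the other accessions at 1 hr, with filled points for called changes. The class II genes and HSP17.6B lie highest, between 2.39 and 4.55, and the open point is HSP15.7 in Col-0 at 3.5 hr.

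To ask whether the response of Col-0 changed with time, the HL against LL change at one time was set against that at another. The response at 3.5 hr was smaller than at 1 hr for 5 of 8 genes (3.29% of all loci were called in this direction). The difference in log2 fold change was -1.96 ± 0.29 for HSP17.6A, -1.70 ± 0.15 for HSP15.7, -1.68 ± 0.14 for At1g59860, -1.29 ± 0.21 for HSP17.6C and -1.11 ± 0.20 for HSP17.4, with limma adjusted p from 1.7e-09 to 1.8e-04. HSP17.6II, HSP17.6B and HSP17.8 were not called, with differences of -0.54, -0.53 and -0.42 and adjusted p of 0.16, 0.078 and 0.23. The 95% confidence intervals of these 3 reached from -1.02 to -0.06, from -0.93 to -0.14 and from -0.84 to -0.0036.

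The response of Col-0 at 25 hr was set against both earlier times. Against 3.5 hr it was larger for HSP15.7 (1.64 ± 0.15, limma adjusted p = 3.4e-09), HSP17.6A (1.29 ± 0.29, 0.0033) and At1g59860 (0.84 ± 0.14, 1.9e-04), and 2.85% of all loci were called in this direction. The other 5 genes lay between -0.52 and 0.15 and were not called. Against 1 hr the response at 25 hr was smaller for the class I genes HSP17.6C (-1.23 ± 0.21), HSP17.6B (-1.05 ± 0.19), HSP17.4 (-1.02 ± 0.20) and At1g59860 (-0.84 ± 0.14), with adjusted p from 2.6e-04 to 0.001 and 1.37% of all loci called in this direction. HSP17.8, the other class I gene, had -0.28 (interval -0.69 to 0.14). Neither class II gene was called, although their intervals left out 0, with -0.68 for HSP17.6A (interval -1.26 to -0.09, adjusted p = 0.21) and -0.58 for HSP17.6II (interval -1.06 to -0.10, adjusted p = 0.18). Whether the classes differed from each other in this was not tested. HSP15.7 differed by -0.06 (interval -0.36 to 0.24). The comparisons share the 1 hr or the 3.5 hr arrays. With the tables used for Col-0 at 1 hr alone, the differences of HSP17.6A, At1g59860 and HSP15.7 that involve 3.5 hr took the opposite sign.

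The levels in HL and in LL were also followed on their own. In HL, all 8 genes were called lower at 3.5 hr than at 1 hr (5.71% of all loci), by log2 differences from -2.31 for At1g59860 and -2.25 for HSP17.6A to -0.50 for HSP17.6B. With the tables used for Col-0 at 1 hr alone, these differences took the opposite sign for HSP17.6A (1.08), At1g59860 (1.01) and HSP15.7 (1.66), and for HSP17.8 (1.49) when groups were placed closest in level. The call of HSP17.6B was lost without Col-0 HL 1 hr replicate 3 (-0.45) and without Col-0 HL 3.5 hr replicate 3 (-0.41). At 25 hr against 1 hr, 6 of 8 genes were called lower in HL (1.56% of all loci), most of all HSP17.6C (-1.33 ± 0.15) and HSP17.4 (-1.03 ± 0.14), and HSP17.8 and HSP15.7 were not (-0.29 and 0.24). For HSP17.6A (-0.62 ± 0.20, adjusted p = 0.037) that call was lost without Col-0 HL 1 hr replicate 1 (-0.54) or 3 (-0.61), without Col-0 HL 25 hr replicate 2 (-0.43) or 3 (-0.58), and with robust empirical Bayes (adjusted p = 0.072). For HSP17.6II (-0.61 ± 0.17) it was lost without Col-0 HL 25 hr replicate 2 (-0.53).

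In LL, 3 genes were called lower at 3.5 hr than at 1 hr (3.64% of all loci). They were HSP17.8 (-1.41 ± 0.14, limma adjusted p = 5.8e-09), HSP17.6II (-0.91 ± 0.17, 9.7e-05) and At1g59860 (-0.63 ± 0.10, 1.7e-05), and for each the 3.5 hr arrays lay below the 1 hr arrays. The interval of HSP17.8 (-1.71 to -1.12) passes the size of 1.66 that the digits can place, so its direction rests on the placing of the LL groups. No other placing of Col-0 LL at 3.5 hr was tested. For HSP17.8 and HSP17.6II as placed, a lower level in both lights at 3.5 hr thus went with a response that was not called different from that at 1 hr. HSP17.6A had -0.28 and the other 4 genes had between -0.03 and 0.21, none of them called. Between LL plants sampled at the same hour on different days, no gene of the 8 was called by limma. At 25 hr against 1 hr the differences were -0.10 to 0.30, with 1 gene (HSP15.7) at an unadjusted p below 0.05 and 0.0252% of all loci called, and at 1 hr against -23 hr they were -0.38 to 0.10, with 0 genes at an unadjusted p below 0.05 and 0.284% of all loci called.

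To ask whether the accessions differed in their response, the HL against LL change at 1 hr was compared between them. The response of Ts-1 was smaller than that of Col-0 for 3 of 8 genes (0.309% of all loci were called in this direction). The difference, Col-0 minus Ts-1, was 1.33 ± 0.21 for HSP17.6C (limma adjusted p = 0.0016), 1.05 ± 0.20 for HSP17.4 (adjusted p = 0.007) and 0.71 ± 0.15 for HSP15.7 (adjusted p = 0.018). Ga-0 minus Ts-1 was called for HSP17.6C (1.2 ± 0.21, adjusted p = 0.0047) and HSP15.7 (0.80 ± 0.15, adjusted p = 0.008), and 0.104% of all loci were called in this direction. When the fit held the compared groups alone, the Ga-0 minus Ts-1 call of HSP15.7 was lost (adjusted p = 0.11). These 2 comparisons share the Ts-1 arrays. HSP17.4 had 0.62 for Ga-0 minus Ts-1 (adjusted p = 0.26) and was not called there. HSP17.6B had 0.81 for Ga-0 minus Ts-1 (adjusted p = 0.066) and 0.52 for Col-0 minus Ts-1 (0.27), neither of them called. Leaving out replicate 3 of every group removed all of these calls, with HSP17.6C then at 1.21 (Col-0 minus Ts-1) and 1.02 (Ga-0 minus Ts-1), HSP15.7 at 0.61 and 0.56, and HSP17.4 at 0.99. Leaving out replicate 2 of every group also removed those for Ga-0 minus Ts-1 (1.07 for HSP17.6C and 0.87 for HSP15.7). The Col-0 minus Ts-1 call for HSP15.7 was lost too without replicate 1 (0.71) or replicate 2 (0.80) of every group. Among single arrays, it was lost without Col-0 HL 1 hr replicate 3, Ts-1 HL 1 hr replicate 3 or Ts-1 LL 1 hr replicate 1 (0.65 each). It was also lost without Col-0 LL 1 hr replicate 1 (0.66).

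HSP17.6A and At1g59860 showed no detectable accession difference in response. At1g59860 differed by -0.02 to 0.03 in the 3 comparisons, with 95% confidence intervals that together span -0.31 to 0.32. The intervals of HSP17.6A were wider, and its differences of -0.19, 0.07 and 0.26 lay within -0.78 to 0.85. HSP17.8 had the opposite sign to HSP17.6C, with -0.40 for Col-0 minus Ts-1 and -0.56 for Ga-0 minus Ts-1 (adjusted p = 0.47 and 0.41). HSP17.6II had -0.44 for Col-0 minus Ts-1 (interval -0.92 to 0.04) and 0.11 for Ga-0 minus Ts-1 (interval -0.37 to 0.59), neither of them called. Between Col-0 and Ga-0, limma called 0 of 8 responses different (0.140% of all loci), and 2 had an unadjusted p below 0.05. These were HSP17.6II (-0.55, interval -1.03 to -0.07) and HSP17.4 (0.44, interval 0.04 to 0.84).

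**Figure D3:**
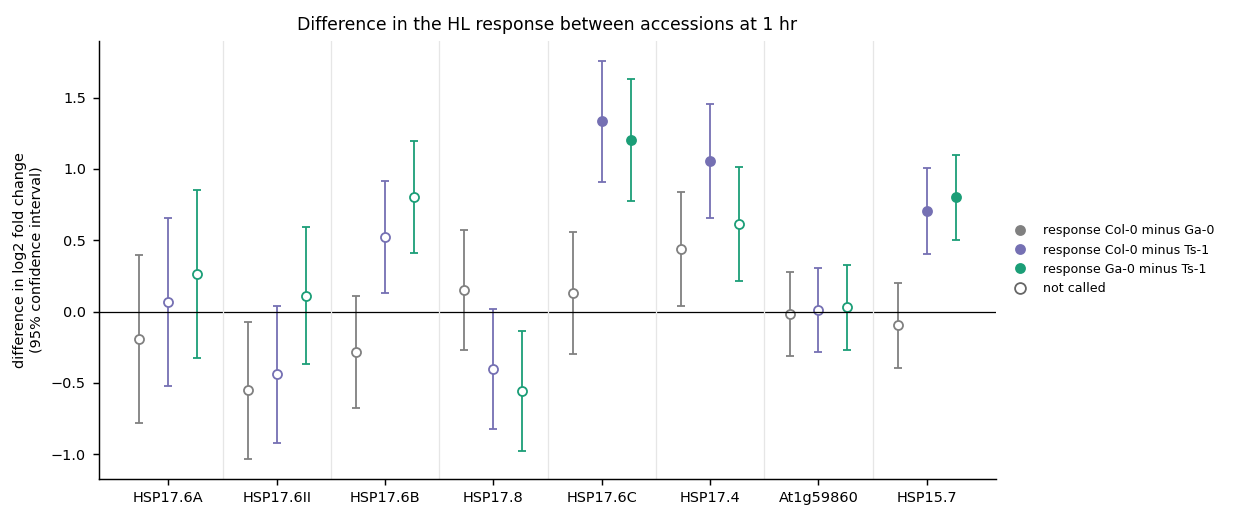
Difference in log2 fold change (HL minus LL at 1 hr) between pairs of accessions for the 8 small HSP genes, with limma 95% confidence intervals and filled points for called differences. HSP17.6C, HSP17.4, HSP15.7 and HSP17.6B lie above 0 against Ts-1 with intervals that leave out 0, while At1g59860 lies within -0.02 to 0.03. HSP17.6B is not called, and HSP17.4 is not called for Ga-0 minus Ts-1.

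The HL levels at 1 hr gave the order of the responses for some of the genes only. HSP17.6II had a lower level in Ts-1 HL than in Col-0 HL, while its difference in response, Col-0 minus Ts-1, was -0.44. Its Ts-1 level was lower in LL as well. Ts-1 HL arrays lay below Col-0 HL arrays for 7 of 8 genes (13.3% of all loci), and 4 genes were called lower in Ts-1 HL than in Col-0 HL (3.63% of all loci). The log2 differences, Ts-1 minus Col-0, were -1.40 ± 0.15 for HSP17.6C, -1.07 ± 0.14 for HSP17.4, -0.79 ± 0.17 for HSP17.6II and -0.57 ± 0.14 for HSP17.6B, with adjusted p from 1.1e-08 to 0.0027. The call of HSP17.6B was lost without replicate 3 of every group (-0.53, adjusted p = 0.080). HSP15.7 differed by -0.41 (adjusted p = 0.0042), within the fold limit. Ga-0 HL was called higher than Ts-1 HL for 6 of 8 genes (2.89% of all loci), by 1.34 for HSP17.6C and by 0.53 to 0.72 for HSP17.6B, HSP17.6A, HSP17.6II, HSP17.4 and HSP15.7. For HSP17.6A (0.67) this call was lost without Ga-0 HL 1 hr replicate 3 (0.62) or Ts-1 HL 1 hr replicate 1 (0.64). For HSP17.6B it was lost without Ga-0 HL 1 hr replicate 2 (0.48) or 3 (0.47) or Ts-1 HL 1 hr replicate 2 (0.48). HSP17.8 and At1g59860 were not called (0.31 and 0.05). Ga-0 HL against Col-0 HL gave 0 of 8 calls by limma (5.70% of all loci), with 2 genes at an unadjusted p below 0.05. HSP15.7 differed by 0.31 (adjusted p = 0.038), which passed the p limit but lay within the fold limit, and HSP17.4 by -0.37 (adjusted p = 0.064).

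In LL the accessions differed for 2 genes, and neither was among those whose response differed. HSP17.6II was lower in Ts-1 LL than in Col-0 LL by -1.23 ± 0.17 (Ts-1 minus Col-0, limma adjusted p = 1.1e-06), and HSP17.8 by -0.62 ± 0.14 (0.0017), where 3.72% of all loci were called in this direction. For both genes the Ts-1 LL arrays lay below the Col-0 LL arrays. Ga-0 LL was higher than Ts-1 LL by 0.87 ± 0.14 for HSP17.8 and by 0.57 ± 0.17 for HSP17.6II (2.77% of all loci). HSP17.6II was also called lower in Ga-0 LL than in Col-0 LL (-0.66 ± 0.17, adjusted p = 0.0042, 3.32% of all loci), although the arrays overlapped. These calls of HSP17.6II that involve Ga-0 depended on single arrays, since Ga-0 LL 1 hr replicate 2 (0.929) lay above replicates 1 and 3 (0.561 and 0.483). When the fit held the compared groups alone, Ga-0 minus Ts-1 had an adjusted p of 0.11, and with robust group means it was 0.47, within the fold limit. It was 0.29 without Ga-0 LL 1 hr replicate 2, 0.50 without Ts-1 LL 1 hr replicate 1 and 0.49 without Ts-1 LL 1 hr replicate 2, and Ga-0 minus Col-0 was -0.47 without Ga-0 LL 1 hr replicate 3, none of them called. The other 6 genes were within the limits in LL, with HSP15.7 higher in Ts-1 LL than in Col-0 LL by 0.30 (adjusted p = 0.038), which did not reach the fold limit.

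Averaged over the 8 genes on the log2 scale, the relative level ordered the 11 groups as a description only. Ga-0 HL at 1 hr (3.11 ± 0.16, SD, n = 3) and Col-0 HL at 1 hr (3.09 ± 0.079) overlapped. Ts-1 HL at 1 hr (2.49 ± 0.035) and Col-0 HL at 25 hr (2.42 ± 0.31) overlapped below them, and Col-0 HL at 3.5 hr (1.56 ± 0.14) was apart from both pairs. Among LL groups, Col-0 at -23 hr (0.11 ± 0.24), Col-0 at 25 hr (0.048 ± 0.045), Col-0 at 1 hr (0 ± 0.054) and Ga-0 at 1 hr (-0.032 ± 0.16) overlapped, and Ts-1 at 1 hr (-0.25 ± 0.066) and Col-0 at 3.5 hr (-0.37 ± 0.035) lay below these without overlap. Single genes departed from this order. HSP15.7 had Ga-0 HL (geometric mean 5.26), Col-0 HL at 25 hr (5.03) and Col-0 HL at 1 hr (4.25) highest, each overlapping with the next. HSP17.6B had Col-0 HL at 3.5 hr (9.98) next after the 1 hr HL groups of Col-0 and Ga-0, overlapping with Ts-1 HL (9.53). HSP17.4 was the only gene of the 8 for which the 2 highest groups, Col-0 HL at 1 hr (10.1) and Ga-0 HL (7.84), did not overlap.

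In some groups the 8 genes deviated together in single arrays, and in other groups they did not. In Ts-1 HL, replicate 1 was the highest array for 4 of 8 genes and the lowest for 2. In Col-0 HL at 25 hr, replicate 1 was the highest array for 7 of 8 genes (32.5% of all loci). Its median deviation from the group mean was 0.32 on the log2 scale. Replicate 2 was the lowest there for 8 of 8 (31.2% of all loci), with -0.30. In Col-0 LL at -23 hr, replicate 2 lay above the group mean for 8 of 8 genes with a median of 0.26. It was the highest array for 6 of 8 (33.1% of all loci), and HSP17.6A was at 2.09 there, against 1.05 and 0.998 in the other arrays. In Ga-0 HL, replicate 1 was the lowest array for 8 of 8 genes (37.4% of all loci), with a median of -0.20. Over all loci the SD of the deviations of an array was 0.082 to 0.13. The median of the 10 chaperone partners listed below had the sign of that of the 8 genes in 23 of 33 arrays. It was 0.23 and -0.16 in Col-0 HL 25 hr replicates 1 and 2, 0.31 in Col-0 LL -23 hr replicate 2 and -0.085 in Ga-0 HL replicate 1. The widest departure was Ts-1 LL replicate 1, with 0.15 for the partners and -0.093 for the 8 genes. What set these arrays apart was not tested. Without Col-0 LL -23 hr replicate 2 and Col-0 HL 25 hr replicate 1, an alternative chosen after seeing the data, every call of the 8 genes reported above was kept. This says little about those calls, since none of them compares the -23 hr group. The other array was the high one of its group, so leaving it out lowers the 25 hr level. Without the low replicate 2 of that group, the calls of HSP17.6A and HSP17.6II in HL at 25 hr against 1 hr were lost.

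**Figure D4:**
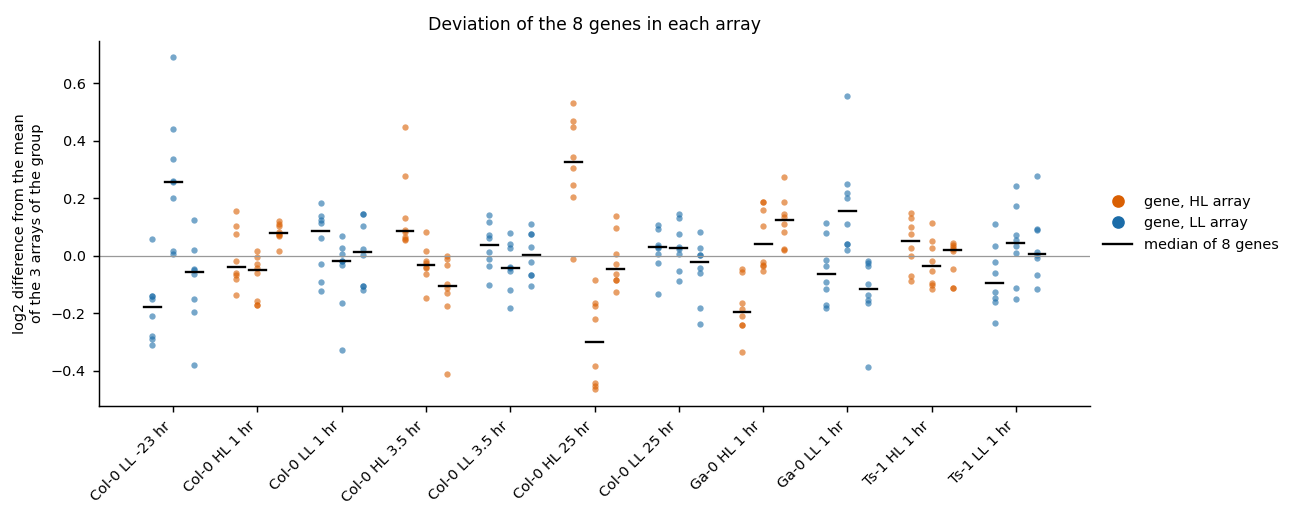
Log2 difference of each of the 8 small HSP genes from the mean of the 3 arrays of its group, array by array (replicates 1 to 3 from left to right in each group), with the median of the 8 genes as a line. In Col-0 HL at 25 hr the medians are 0.32, -0.30 and -0.047, and in Col-0 LL at -23 hr replicate 2 is at 0.26.

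Genes that work with these proteins were read from 3 lists, which were chosen with earlier results of these data known. In Col-0 at 1 hr, 4 of 8 further small HSP genes were called up-regulated (1.94% of all loci), and HSP15.4 was the 1 called down-regulated (0.920% of all loci). HSP23.5 and HSP23.6-MITO, both mitochondrial, and HSP17.4B were called in all 5 comparisons, with log2 fold changes in Col-0 at 1 hr of 2.82, 2.50 and 1.69. HSP15.4 was lower, by -0.72, -0.70 and -0.85 in Col-0 at 1, 3.5 and 25 hr. The class I gene HSP18.2 was called in Col-0 at 1 hr (0.51), and HSP21 of the chloroplast was not called in any comparison (-0.09 in Col-0 at 1 hr). HSP18.2, HSP15.4 and HSP21 were placed by the smallest change, so a change beyond 3.16-fold would not be seen in them. Such a change could appear in the opposite direction, so the directions given for these genes hold only for smaller changes.

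Of 12 regulators, 7 were called up-regulated in Col-0 at 1 hr (1.94% of all loci), 5 at 3.5 hr (3.94%) and 5 at 25 hr (2.67%). In Ga-0 7 were called up-regulated (1.37% of all loci) and in Ts-1 6 (1.56%), and none was called down-regulated. HSFA2, a heat stress factor that is itself induced by stress, DREB2A, which acts in drought and heat responses, the coactivator MBF1C and HSFB1 were called in all 5, with 1.89, 1.87, 1.35 and 1.38 in Col-0 at 1 hr. HSFA7A had the largest change of the list in Col-0 at 1 hr (2.63) and was at 0.14 at 3.5 hr. HSFA1A, HSFA1B and HSFA1D, the factors present before stress, were not called, with -0.04, 0.11 and 0.04.

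Of 10 chaperone partners, 8 were called up-regulated in Col-0 at 1 hr (1.94% of all loci), 6 at 3.5 hr (3.94%) and 7 at 25 hr (2.67%). In Ga-0 8 were called up-regulated (1.37% of all loci) and in Ts-1 9 (1.56%), and none was called down-regulated. ROF2, an FKBP-type co-chaperone, the Hsp70-Hsp90 organizing protein HOP3, HSP90.1, HSP70 (AT3G12580), HSP101 and a J-domain protein (AT2G20560) were called in all 5, with 3.24, 3.19, 2.96, 2.66, 2.46 and 2.16 in Col-0 at 1 hr. HSC70-1, a constitutive HSP70, was at 0.26 and was not called. The lists' median log2 fold changes in Col-0 at 1 hr were 0.38 for the further small HSPs, 0.71 for the regulators and 2.31 for the partners, beside 3.18 for the 8 genes. At 3.5 hr against 1 hr, the response was smaller for 8 of 10 partners, 5 of 12 regulators and 3 of 8 further small HSPs, beside 5 of the 8 genes. Of all loci, 3.29% were called in this direction.

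**Figure D5:**
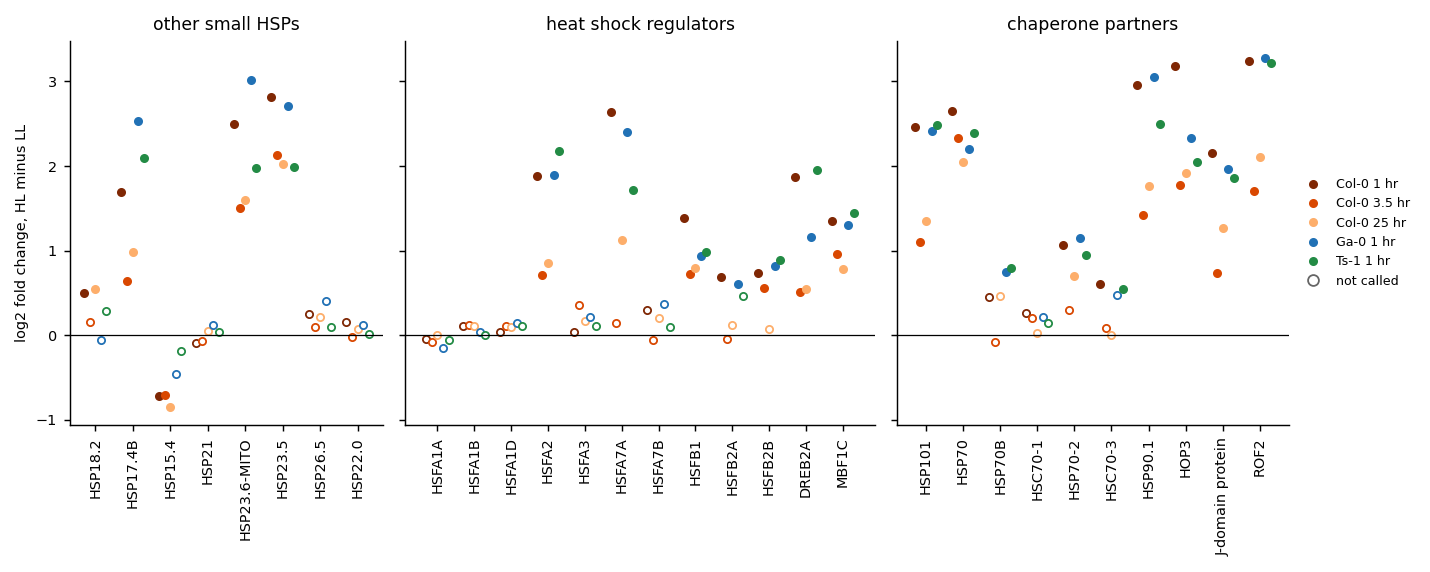
Log2 fold change (HL minus LL) of 8 further small HSP genes, 12 heat shock regulators and 10 chaperone partners in Col-0 at 1, 3.5 and 25 hr and in the other accessions at 1 hr, with filled points for called changes. ROF2 is highest at 3.24 in Col-0 at 1 hr, and the HSFA1 genes lie near 0.

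The loci most like the 8 genes were found by the correlation of their group means with the mean of the 8, over 11 groups. They were HSP23.6-MITO (Pearson's r 0.98), ROF2 (AT5G48570, 0.98), AT5G25450 (0.97), HSP23.5 (AT5G51440, 0.97) and AtCDC48B (AT3G53230, 0.96), an AAA-type ATPase. Their log2 fold changes in Col-0 at 1 hr were 2.50, 3.24, 1.86, 2.82 and 1.61. Over the 33 arrays, 4 of these 5 were again among the 5 highest, and by Spearman's rho over the 11 groups 1 of 5 was. All 5 are in the supplementary tables, and loci outside them that changed beyond 3.16-fold could not have been found. The groups share the contrast between HL and LL, so r is a description. The 8 genes themselves had r between 0.91 (At1g59860) and 0.997 (HSP17.6A) with their own mean.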

How the data were processed

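Transcripts were measured in 33 arrays, 3 per group, and groups and replicates follow the sample labels. The authors extracted the arrays in Expression Console, annotated probes by locus with a custom probe file and normalized them with RMA. The other values, as deposited, are the digits of linear RMA values without a decimal separator (918258 values of up to 10 digits, 1 with a decimal point). The digits were placed as described above, which found 1806 of 1806 listed fold changes within 0.0001 on the log10 scale and moved no array of the 8 genes. As in the study, limma was fitted per gene with empirical Bayes and Benjamini-Hochberg adjustment (limma 3.58.1, R 4.3.3). The model had log2 values, 1 mean per group, 22 contrasts and no trend (22 residual and 8.36 prior degrees of freedom), which the methods do not state. The fold limit was also put on differences in response, for which the methods name a p limit alone. Placing and summaries used Python 3.11.15 with pandas 2.3.3 and numpy 2.4.6. Placing and fit were run on simulated data with changes in Col-0 HL at 1 hr alone. Recovery was required only for changes that had been given to the placing. This run therefore does not test the placing of other groups or of loci outside the supplementary tables. The submitters' processing notes name RMA and limma.

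The 8 genes and the lists were chosen with earlier results of these data known. Named genes are the 8, list genes called in all 5 comparisons or with the largest or lowest change of their list in Col-0 at 1 hr, and the 5 loci most like the 8. HSP18.2, HSP21, HSFA1B and HSFA1D were named after their values were seen. The RefSeq table (TAIR10.1) matched 27241 loci and all 8 genes. Array number limits the precision. Alternatives covered the p adjustment, fold limit, fit, replicate block, centring, placing and arrays left out. Promoter motifs, protein sequences and the qRT-PCR were not analysed here.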

Additional observations from a re-analysis of the deposited data

Results flagged for a closer look

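The response to HL differed between groups by limma's test of the difference for 17 pairs of gene and contrast. Between accessions at 1 hr, the difference of the log2 fold changes, Col-0 minus Ts-1, was 1.33 for HSP17.6C, 1.05 for HSP17.4 and 0.71 for HSP15.7. Ga-0 minus Ts-1 was 1.2 for HSP17.6C and 0.80 for HSP15.7. All of these accession calls were lost without replicate 3 of every group.

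Between time-points in Col-0, the difference at 3.5 hr minus 1 hr was -1.96 for HSP17.6A, -1.29 for HSP17.6C, -1.11 for HSP17.4, -1.68 for At1g59860 and -1.70 for HSP15.7. At 25 hr minus 1 hr it was -1.05 for HSP17.6B, -1.23 for HSP17.6C, -1.02 for HSP17.4 and -0.84 for At1g59860. At 25 hr minus 3.5 hr it was 1.29 for HSP17.6A, 0.84 for At1g59860 and 1.64 for HSP15.7. With 3 arrays per group, single arrays were not screened as outliers.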

How the results depend on the processing

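The replicate block, median centring, the placing of Ga-0 and Ts-1 by their HL groups and the fit without Col-0 LL -23 hr replicate 2 and Col-0 HL 25 hr replicate 1 kept all 89 values checked on their side of the limits. The last of these says little, since no call compares the -23 hr group and the low Col-0 HL 25 hr array was kept in it. Same-numbered arrays correlated by 0.015 on average over 165 pairs (-0.22 to 0.27), and arrays of different numbers by -0.0076 on average. Of 33 arrays, 16 correlated best with an array of their own number. These values do not settle whether the numbers pair the arrays, and the main fit used no pairing. The replicate block left the counts of genes called up-regulated at 8 in Ga-0, 8 in Ts-1 and, for Col-0, 8, 7 and 8 at 1, 3.5 and 25 hr. Promoter motifs (the heat shock element in 2 or 3 units) were not run. The number of arrays limits what can be seen, and signal over background is not known from digits.

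The counts that follow are of genes called in at least 1 contrast, with the share of all loci called so. Of 8 genes, 3 had responses called different between accessions (0.762% of all loci). This count was 6 at an unadjusted p, 6 with robust group means, 1 with the Holm adjustment and 0 with a limit of 1.4 on the log2 scale or with treat. For the 6 genes with responses different between time-points (10.4% of all loci) it was 3 at the log2 limit. For the 2 genes that differed between accessions in LL it was 1 at a 2-fold limit or with treat and 0 at the log2 limit. For the 6 that differed between accessions in HL (11.3% of all loci) it was 3 with Holm, 2 at a 2-fold limit or with treat and 0 at the log2 limit. For the 3 that differed over time in Col-0 LL (7.64% of all loci) it was 1 at a 2-fold limit, with treat and at the log2 limit. For the 8 over time in Col-0 HL (13.2% of all loci) it was 5 at the log2 limit.

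Leaving out replicates, the counts up-regulated were 8 to 8, except 6 to 7 in Col-0 at 3.5 hr. The other counts were 0 to 4 for accession responses (0 without replicate 3 of every group), 6 to 6 for time responses, 2 to 2 for accessions in LL, 4 to 6 in HL, 3 to 3 for Col-0 LL over time and 8 to 8 for Col-0 HL. Of 636 values with 1 array left out, 615 kept the call, 21 lost it and 0 changed sign. Without replicate 3 of every group, the difference of HSP17.4 at 25 hr minus 1 hr (-0.91) and of HSP17.6A at 25 hr minus 3.5 hr (1.18) lost the call as well, as did HSP17.6B for Ts-1 HL minus Col-0 HL (-0.53). Apart from the limits, p adjustments and placings, single calls were lost when the fit held the compared groups alone (HSP15.7 response and HSP17.6II in LL, both Ga-0 minus Ts-1), with robust group means (HSP17.6II in LL, Ga-0 minus Ts-1) and with robust empirical Bayes (HSP17.6A in HL, 25 hr minus 1 hr).

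With the smallest change for every locus, which uses no table, the counts up-regulated were 2, 1, 1, 3 and 3 in the 5 comparisons, since changes beyond 3.16-fold cannot be placed. The log2 fold changes that changed sign in Col-0 at 1 hr were those of HSP17.8 (-1.17), HSP17.6C (-0.30), At1g59860 (-1.14) and HSP15.7 (-1.23). At 3.5 hr they were those of HSP17.6A (-0.93), HSP17.6II (-0.10), HSP17.6B (-0.037), HSP17.8 (-1.59), HSP17.6C (-1.59) and HSP17.4 (-1.09). At 25 hr they were those of HSP17.6II (-0.14), HSP17.6B (-0.55), HSP17.8 (-1.44), HSP17.6C (-1.53), HSP17.4 (-1.0) and HSP15.7 (-1.29). In Ga-0 they were those of HSP17.8 (-1.32), HSP17.6C (-0.43), HSP17.4 (-0.42), At1g59860 (-1.12) and HSP15.7 (-1.14). In Ts-1 they were those of HSP17.6B (-0.024), HSP17.8 (-0.76), HSP17.6C (-1.63), HSP17.4 (-1.03) and At1g59860 (-1.15). The accession responses of HSP15.7 became -2.62 (Col-0 minus Ts-1) and -2.52 (Ga-0 minus Ts-1), and its HL difference Ga-0 minus Ts-1 became -2.61. The responses at 3.5 hr minus 1 hr became 1.64 (At1g59860) and 1.63 (HSP15.7), that of At1g59860 at 25 hr minus 1 hr 2.48, and that of HSP15.7 at 25 hr minus 3.5 hr -1.68. The HL differences at 3.5 hr minus 1 hr became 1.01 (At1g59860) and 1.66 (HSP15.7), and at 25 hr minus 1 hr 2.54 (At1g59860).

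With the tables used for Col-0 at 1 hr alone and other comparisons placed closest to it in change, 29 of 32 changes of the 8 genes were placed as by the tables, and 28 of 32 when placed closest in level. Under both, the responses at 3.5 hr minus 1 hr became 1.36 (HSP17.6A), 1.64 (At1g59860) and 1.63 (HSP15.7), and those at 25 hr minus 3.5 hr -2.03, -2.48 and -1.68. The HL differences at 3.5 hr minus 1 hr became 1.08 (HSP17.6A), 1.01 (At1g59860) and 1.66 (HSP15.7), and closest in level 1.49 for HSP17.8.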
